A study of Mus musculus with 16 samples.

Results

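The 10 genes described here mark the endothelium and the blood-spinal cord barrier. They were chosen by gene symbol, as Cldn5, Ocln, Tjp1, Pecam1, Cdh5, Slc2a1, Mfsd2a, Abcb1a, Plvap and Vwf, and are 10 of the 24411 gene symbols in the deposited tables. All 10 had a mean TPM (a level per unit of transcript length) above 1 in each of the 3 conditions and so passed the filter under which 16091 genes were tested. RNA came from the spinal cord of 16 female C57BL/6J mice, 1 library per mouse. The 7 SCI + Atorvastatin mice had a spinal cord injury (SCI) made at T8-9 by 0.25 mm of lateral compression at 12 weeks of age and received atorvastatin at 10 mg/kg daily for 4 weeks, starting 2 weeks after injury. The 7 SCI + Vehicle mice had the same injury and received the vehicle of dimethyl sulfoxide, PEG 400, Tween 80 and saline on the same schedule. The 2 Uninjured Control mice had neither injury nor vehicle, so injury and vehicle cannot be told apart against them. Tissue was a 5 mm section around the injury, or the same level of uninjured cord, taken after saline perfusion at 6 weeks after injury by the labels and at 44 d by the study's methods. For the Uninjured Control mice the series description gives an age of 12 weeks, as at the start for SCI mice. The study's methods instead give ages at isolation of 18 wk for SCI mice and 14 wk for Uninjured Control mice. Age thus differs along with injury.

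As background, the vessels of the spinal cord are lined by endothelial cells that seal the paracellular route with tight junctions and take up nutrients through dedicated transporters, which together form the blood-spinal cord barrier. Wnt signalling from neighbouring cells keeps this state, and pericytes wrapped around the capillaries support it. Leaky vessels outside the nervous system carry fenestrae and many caveolae instead. In an injured cord the barrier opens and vessels regrow, and the lesion core fills with macrophages and with fibroblasts that arise around vessels and in the meninges. In a section of whole tissue, fewer endothelial cells and less RNA per cell cannot be told apart.

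Per unit of transcript length, the glucose transporter Slc2a1 and the junction scaffold Tjp1 stood highest among the 10 in SCI mice, and Vwf, the fenestral diaphragm gene Plvap and Ocln lowest. Mean TPM in SCI + Vehicle mice was 147 ± 21.4 (SD, n = 7) for Slc2a1 and 113 ± 17.9 (SD, n = 7) for Tjp1, and their ranges overlapped. Next came Cldn5 at 39.9 ± 8.62 (SD, n = 7) and Abcb1a at 34.0 ± 9.94 (SD, n = 7), whose highest TPM in any SCI mouse, 61.5 and 62.0, lay below the lowest Tjp1 value of 79.7. Mfsd2a, Cdh5 and Pecam1 had means of 27.9, 24.2 and 17.8 TPM, with ranges that overlapped one another. Vwf, Plvap and Ocln were lowest, at 10.4 ± 4.56, 8.94 ± 3.67 and 8.13 ± 1.96 TPM (SD, n = 7 each), and did not differ beyond their spread. In SCI + Atorvastatin mice the order began in the same way, with 141 TPM for Slc2a1 and 130 for Tjp1, and ended with Vwf at 13.8, Ocln at 9.30 and Plvap at 7.12.

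Total counts on genes ranged from 14823292 to 25579826 per library, so that 3 counts, the limit that a count of 0 allows, correspond to 0.117 to 0.202 CPM, the count scaled to the library's total. Reads carried no molecular identifiers, and such limits cover counting error only. Both Uninjured Control libraries stood apart. Albumin (Alb), made by liver cells, had 60169 and 10471 counts in them and at most 81 in any SCI mouse, and the 14 hepatocyte markers summed to 4889 and 854 CPM against 2.07 to 21.1 in SCI mice. The markers of liver sinusoidal endothelium were mixed. Bmp2, which other cells also make, had 11.2 and 26.3 CPM in the controls against at most 6.60 in SCI mice and was called lower in both comparisons (log2 fold changes -2.23 and -2.06, edgeR adjusted p = 0.00571 and 0.00708). Gpr182 had 14.5 CPM in control 1 and 0 in control 2, against at most 6.39. Fcgr2b, shared with macrophages, was called higher in SCI mice. Clec4g, Oit3 and Dnase1l3, low in SCI mice too, were at 0 counts in both controls, and the 7 markers of that list summed to 29.8 and 36.5 CPM against 24.2 to 58.4 in SCI mice. With library sizes counted without hepatocyte and kidney markers, 1 and 4 of the 10 genes were called against the controls, as with full library sizes. Neuron, oligodendrocyte and astrocyte markers were high in every library, as the label spinal cord requires. Many genes of every kind were at 0 counts in the controls. Of the genes tested, 21.8% were at 0 in control 1, 24.1% in control 2 and 15.1% in both, against 2.57% to 5.76% in any SCI library. None of the 10 genes was among them. Of 17 further pan-endothelial genes, 3 were at 0 in control 1, 8 in control 2 and 2, Emcn and Clec14a, in both. Folds against such zeros, given further on, thus rest on libraries in which fewer genes were detected, and whether the RNA was absent or missed was not tested.

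Among the SCI libraries, SCI + Vehicle mice 4 and 7 stood apart, and results that rest on them are given with and without them. Fibroblast markers summed to 575 and 390 CPM in these 2 mice against 1257 to 2851 in the other SCI mice. Neuron markers summed to 8089 CPM in mouse 7 against 4751 to 6322 in the other SCI mice.

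The tight junction genes come first. Claudin 5 (Cldn5, chromosome 16 from 18776847 to 18778262 of GRCm38) is the main claudin of brain and cord endothelium. Occludin (Ocln, chromosome 13, 100496507 to 100552718) is a transmembrane protein of tight junctions in endothelium and epithelium alike. ZO-1 (Tjp1, chromosome 7, 65296165 to 65527781) ties such proteins to actin and is also made by glia and many other cells. The 250 bases before the RefSeq start (GRCm38.p6) are shown for Tjp1, Cldn5 and Abcb1a. Against the controls, Tjp1 was called higher in both SCI groups, Cldn5 in neither and Abcb1a in SCI + Atorvastatin mice. Capitals mark the core of the motif bound by ETS factors, of which endothelial cells use several, written GGAAG and searched on both strands, where the reverse strand reads CTTCC.
Tjp1 (chr7:65371245-65371494, minus strand): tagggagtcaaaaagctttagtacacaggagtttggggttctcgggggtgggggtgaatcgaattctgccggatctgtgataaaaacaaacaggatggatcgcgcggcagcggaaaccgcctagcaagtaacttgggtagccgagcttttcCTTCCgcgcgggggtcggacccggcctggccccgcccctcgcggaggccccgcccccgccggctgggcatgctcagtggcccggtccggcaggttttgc
Abcb1a (chr5:8566841-8567090, plus strand): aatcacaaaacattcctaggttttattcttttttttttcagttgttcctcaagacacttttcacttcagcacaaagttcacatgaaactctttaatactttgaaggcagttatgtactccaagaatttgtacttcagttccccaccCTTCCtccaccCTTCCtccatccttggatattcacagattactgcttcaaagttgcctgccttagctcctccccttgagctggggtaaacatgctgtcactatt
Cldn5 (chr16:18776597-18776846, plus strand): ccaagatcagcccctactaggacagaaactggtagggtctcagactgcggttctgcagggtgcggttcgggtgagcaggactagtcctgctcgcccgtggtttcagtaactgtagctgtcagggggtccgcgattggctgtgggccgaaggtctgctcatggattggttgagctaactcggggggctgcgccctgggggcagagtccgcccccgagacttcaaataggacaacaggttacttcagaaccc
The core was found 1 time before Tjp1, 2 times before Abcb1a and not before Cldn5, and 64.1% of 32851 RefSeq starts of all genes hold it in a window of this length. The RefSeq start of Abcb1a lies upstream of the gene's span in the GENCODE annotation, which begins at 8660077. That of Tjp1 lies inside its span, whose 5' end on the minus strand is at 65527781. Whether these starts are used in the cord was not tested. The window before Abcb1a held 40.4% G and C and 0 CpG dinucleotides, against 63.2% and 22 before Tjp1, 59.6% and 12 before Cldn5, and medians of 52.4% and 6 over all starts. Of the 10 genes, 6 had an entry, which besides these were Mfsd2a, Ocln and Slc2a1. Cdh5, Pecam1, Plvap and Vwf had none.

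Tjp1 was the only gene of the 10 called higher in both SCI groups. TMM-normalized CPM, which also corrects for library composition, was 177 and 247 in the Uninjured Control mice. It ran from 255 through a median of 337 to 365 in SCI + Vehicle mice and from 350 through 370 to 394 in SCI + Atorvastatin mice. Every SCI mouse thus lay above both controls, with SCI + Vehicle mouse 7 the nearest to them. All SCI mice also lay above both controls for Pecam1, which was called with atorvastatin only. In comparisons with the controls, a call needed a change of over 25%, or 0.322 on the log2 scale, and an adjusted p (Benjamini-Hochberg) below 0.05. The log2 fold change of Tjp1 was 0.63 in SCI + Vehicle vs. Uninjured Control (standard error, SE, 0.176, adjusted p = 0.0219 in edgeR's quasi-likelihood test). In SCI + Atorvastatin vs. Uninjured Control it was 0.83 (SE 0.120, edgeR adjusted p = 0.000477). The first call was lost without control 1 (log2 fold change 0.40, edgeR adjusted p = 0.0925).

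Cldn5 had 33.7 CPM in Uninjured Control mouse 1 and 8.92 in mouse 2, the highest and the lowest value of all 16 mice. The 14 SCI mice lay between the controls, from 13.1 through a median of 17.4 to 25.7 CPM with vehicle and from 16.03 through 22.5 to 28.7 with atorvastatin. The log2 fold change was -0.26 with vehicle (SE 0.438, edgeR adjusted p = 0.700) and 0.00 with atorvastatin (SE 0.422, edgeR adjusted p = 1.00). Its sign followed the control used: against control 2 alone it was 0.99 and 1.26, and against control 1 alone it was -0.93 and -0.66, in SCI + Vehicle and SCI + Atorvastatin mice.

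Ocln had 6.18 and 8.25 CPM in the controls. It ran from 7.96 through 10.6 to 16.03 CPM with vehicle and from 10.0 through 13.0 to 13.9 with atorvastatin. All 7 SCI + Atorvastatin mice lay above both controls, while SCI + Vehicle mouse 4 lay below control 2. Neither change was called, at log2 fold changes of 0.61 (edgeR adjusted p = 0.297) and 0.79 (edgeR adjusted p = 0.0598). In control 1 the 123 counts of Ocln stood beside a TPM of 0.65, whereas 182 counts in control 2 stood beside 7.02, so its counts and TPM did not agree there, by 2.78 on the log2 scale against the gene's median ratio.

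The genes of the endothelium as a whole did not move as a block. PECAM-1 (Pecam1, chromosome 11, 106654217 to 106750628) is an adhesion molecule of all endothelium that platelets and leukocytes also carry. Its CPM was 15.5 and 7.97 in the controls, 16.5 through 24.8 to 31.2 with vehicle and 20.99 through 28.7 to 37.2 with atorvastatin, so that neither SCI group overlapped the controls. It was called with atorvastatin, at a log2 fold change of 1.29 (SE 0.329, edgeR adjusted p = 0.0107), or 2.45-fold. With vehicle the log2 fold change was 0.98 (SE 0.369, edgeR adjusted p = 0.0678) and was not called.

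VE-cadherin (Cdh5, chromosome 8, 104101625 to 104144511) is the adherens junction protein particular to endothelium. The controls had 51.1 and 50.3 CPM, the closest pair of the 10 genes. Values ran from 9.20 through 44.4 to 55.3 CPM with vehicle and from 39.8 through 43.9 to 68.4 with atorvastatin, and the 2 lowest were SCI + Vehicle mice 4 and 7 at 17.6 and 9.20. Cdh5 overlaps the antisense gene Gm29682, which the tables also hold. Its log2 fold change was -0.44 with vehicle (SE 0.522, edgeR adjusted p = 0.569) and -0.04 with atorvastatin (SE 0.226, edgeR adjusted p = 0.915). Without mice 4 and 7 the first value was -0.12.

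Von Willebrand factor (Vwf, chromosome 6, 125546774 to 125686679) is stored by endothelium of larger vessels and by platelets, and binds platelets at wounds. It had 26.5 and 12.1 CPM in the controls, 7.26 through 46.1 to 63.8 with vehicle and 36.1 through 57.0 to 70.2 with atorvastatin. All SCI mice lay above both controls but SCI + Vehicle mouse 7, which was below both. The rise with atorvastatin was called (log2 fold change 1.47, SE 0.365, edgeR adjusted p = 0.00956), or 2.76-fold. With vehicle the log2 fold change was 1.06 (SE 0.623, edgeR adjusted p = 0.227), and it was called once mouse 7 was left out (1.24, edgeR adjusted p = 0.0270). The 6 platelet and megakaryocyte markers summed to 9.83 and 14.1 CPM in the controls and to 4.05 to 20.9 in SCI mice, and 0 of the 5 tested were called in either comparison with the controls.

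Among the transporters, GLUT1 (Slc2a1, chromosome 4, 119108711 to 119137983) carries glucose over the barrier and is made by astrocytes too. Control 1 had 80.7 CPM and control 2 had 152, and the SCI mice ran from 121 through 135 to 163 with vehicle and from 104 through 134 to 157 with atorvastatin. Its log2 fold changes of 0.25 and 0.20 (edgeR adjusted p = 0.397 and 0.501) were not called. MFSD2A (Mfsd2a, chromosome 4, 122946850 to 122961188) takes up lysophosphatidylcholine with omega-3 fatty acids and holds caveolar transport down. It had 14.01 and 41.4 CPM in the controls, and the SCI mice, from 19.9 to 34.1, all lay between them. Its log2 fold change was -0.00 with vehicle (SE 0.350) and -0.14 with atorvastatin (SE 0.339), with opposite signs against each control alone.

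P-glycoprotein (Abcb1a, chromosome 5, 8660077 to 8748575) pumps drugs and other lipophilic compounds back into the blood. Its CPM was 58.7 and 42.9 in the controls, 40.2 through 86.5 to 95.7 with vehicle and 85.0 through 92.9 to 131 with atorvastatin. All 7 SCI + Atorvastatin mice stood above both controls, whereas SCI + Vehicle mice 4 and 7, at 40.2 and 53.2, lay below the higher control. With atorvastatin the log2 fold change was 0.99 (SE 0.199, edgeR adjusted p = 0.00299), or 1.99-fold. With vehicle it was 0.57 (SE 0.324, edgeR adjusted p = 0.212), and without mice 4 and 7 it was 0.77 and called (edgeR adjusted p = 0.0188). Of the 100-base windows of the Abcb1a transcript, 7.72% also occur in the paralog Abcb1b, so some reads could be split between them. Abcb1b had 0 counts in both controls and 178 to 524 in the SCI mice. In control 2 the counts of Abcb1a exceeded its TPM by 0.94 on the log2 scale, relative to the gene's median ratio.

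Plvap (chromosome 8, 71497765 to 71511752) forms the diaphragms of fenestrae and caveolae and is a mark of vessels without a barrier. It overlaps Gtpbp3 on the opposite strand, which the tables also hold. The controls had 6.12 and 10.7 CPM, SCI + Vehicle mice 4.31 through 6.64 to 11.9, and SCI + Atorvastatin mice 3.75 through 5.20 to 9.67. The groups overlapped throughout. Log2 fold changes were -0.24 (SE 0.483) with vehicle and -0.49 (SE 0.456) with atorvastatin, and neither was called.

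**Figure D1:**
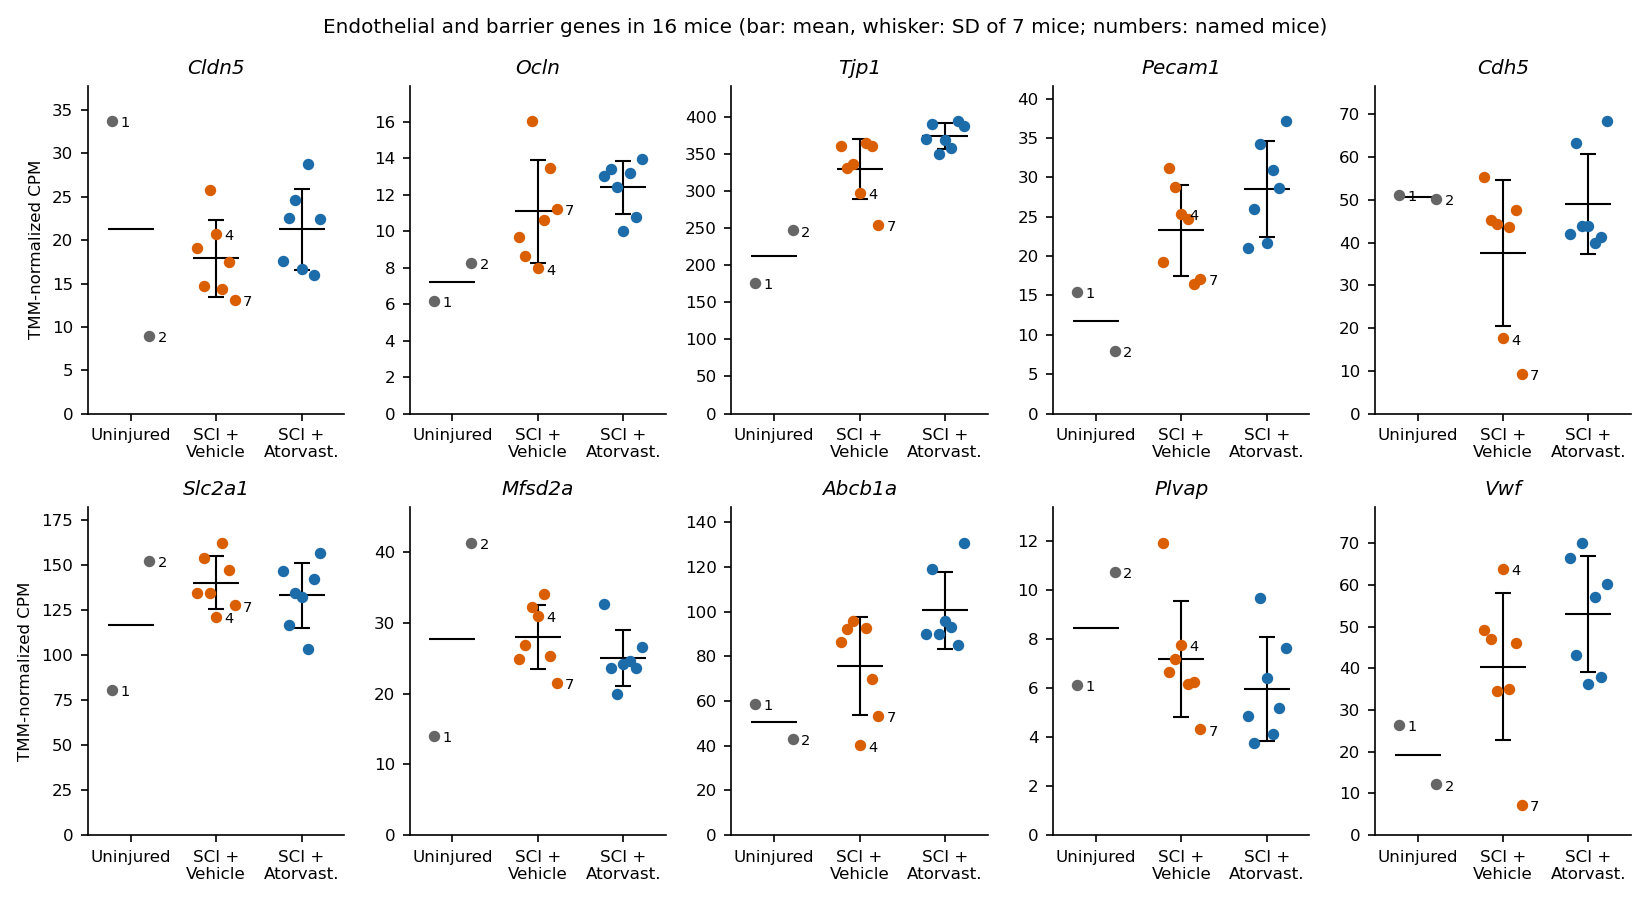
TMM-normalized CPM of each of the 10 genes (vertical axes, from 0) in the 2 Uninjured Control, 7 SCI + Vehicle and 7 SCI + Atorvastatin mice, with 1 point per mouse, a bar at the group mean and whiskers of 1 SD for groups of 7. Numbers mark the controls and SCI + Vehicle mice 4 and 7. For Cldn5 and Mfsd2a all SCI mice lie between the controls, and for Tjp1 and Pecam1 all lie above both.

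Counted over the 10 genes, 1 was called in SCI + Vehicle vs. Uninjured Control (Tjp1, higher), where 29.8% of the 16091 genes tested were called, 19.9% higher and 9.91% lower. In SCI + Atorvastatin vs. Uninjured Control 4 of 10 were called, all higher (Tjp1, Pecam1, Abcb1a and Vwf), against 38.9% called among all genes, 24.9% higher and 14% lower. Groups did not overlap for 2 of the 10 with vehicle (Tjp1 and Pecam1) and for 5 with atorvastatin (those called and Ocln), and were then higher in SCI mice, against 24.8% and 29.8% of all genes tested. The median log2 fold change of the 10 was 0.41 with vehicle and 0.50 with atorvastatin, beside 0.17 and 0.21 over all genes tested. The 2 comparisons share the same 2 controls, and for Cldn5, Mfsd2a and Slc2a1 these differed from each other by more than the whole range of the 14 SCI mice. With each control alone, the sign of the log2 fold change was opposite for 4 of 10 genes with vehicle and 3 of 10 with atorvastatin. With a weight for the spread of each group (limma's voom, chosen after the data were seen), 0 of the 10 were called in either comparison, and 131 and 146 of all genes.

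**Figure D2:**
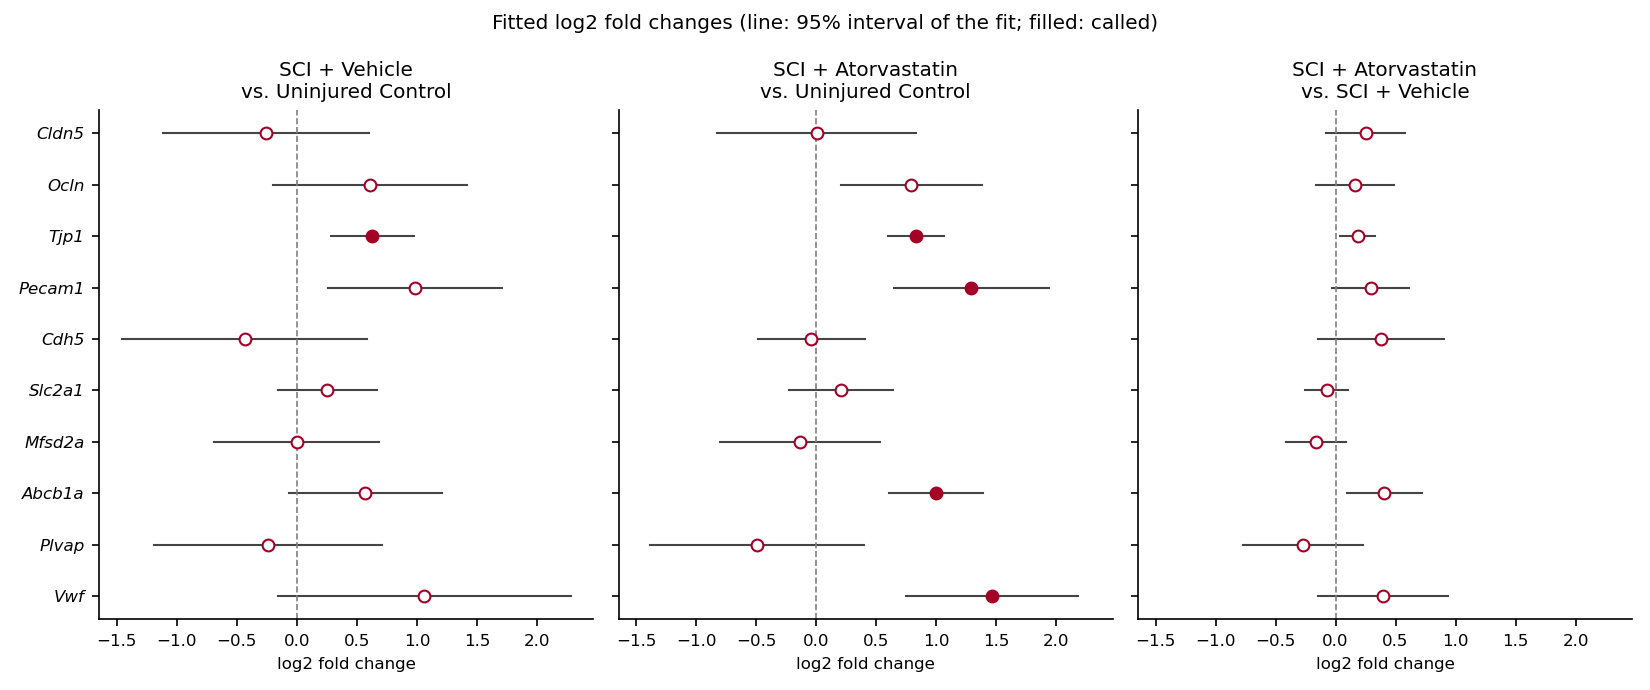
Fitted log2 fold change of each gene (horizontal axis) in the 3 comparisons, with a line of 1.96 standard errors to each side and filled circles for called genes. In SCI + Atorvastatin vs. Uninjured Control 4 circles are filled, in SCI + Vehicle vs. Uninjured Control 1 and between the treatments 0.

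Whether atorvastatin changed these genes in the injured cord is the comparison of 7 mice with 7. None of the 10 was called in SCI + Atorvastatin vs. SCI + Vehicle at an unadjusted p below 0.001 with the same limit on the fold change, a rule by which 0.106% of all genes tested (17 genes) were called. No gene of the 16091 had an adjusted p below 0.05 (smallest 0.680, edgeR), while 1132, or 7.03%, had an unadjusted p below 0.05. DESeq2 called 0 of the 10 and 37 genes in all. Of the 10, 2 had an unadjusted p below 0.05, both higher with atorvastatin. Abcb1a was higher by 0.41 on the log2 scale (SE 0.160, edgeR unadjusted p = 0.0189 and adjusted p = 0.680) and above the vehicle median in 6 of 7 treated mice. Tjp1 was higher by 0.18 (SE 0.0754, edgeR unadjusted p = 0.0242 and adjusted p = 0.681), in 7 of 7. Without SCI + Vehicle mice 4 and 7 these values were 0.20 and 0.09, with edgeR unadjusted p = 0.0867 and 0.148.

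None of the other 8 genes had an unadjusted p below 0.05 between the treatments. The log2 difference was 0.38 for Cdh5, 0.39 for Vwf, 0.29 for Pecam1, 0.25 for Cldn5 and 0.16 for Ocln, and below 0 for Slc2a1 (-0.07), Mfsd2a (-0.16) and Plvap (-0.27). Intervals of 1.96 standard errors ran from -0.08 to 0.58 for Cldn5 and from -0.25 to 0.10 for Slc2a1, so a change of Slc2a1 by the limit of 0.322 lay outside its interval and one of Cldn5 did not. For Plvap the interval was -0.77 to 0.23 and for Vwf -0.15 to 0.94. The difference of Cdh5 fell to 0.05 without SCI + Vehicle mice 4 and 7. Fitted values of 7 of the 10 were above 0, as were 48.7% of all genes tested, and the median of the 10 was 0.22 beside -0.0014 over all genes. Without SCI + Vehicle mice 4 and 7, 7 of the 10 were still above 0 and the median of the 10 was 0.09.

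The spread between mice also differed. Over 7 mice, the coefficient of variation of Cdh5 was 45.6% with vehicle and 24.0% with atorvastatin, that of Vwf 43.6% and 26.1%, and that of Tjp1 12.3% and 4.56%. For Slc2a1 it was 10.6% and 13.6%, and for Plvap 32.9% and 35.6%. Without SCI + Vehicle mice 4 and 7 the values with vehicle were 10.02% for Cdh5, 16.7% for Vwf and 4.44% for Tjp1, so the wider spread of these genes with vehicle rests on those mice. Leaving out the mice farthest from the Cdh5 median lowers its spread by construction, and no SCI + Atorvastatin mouse was left out. The trimmed values are thus not a like comparison of the treatments. The difference in spread was not tested.

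SCI + Vehicle mice 4 and 7 were low for some of the endothelial genes and not for others. Against the median of the 5 other vehicle mice, Cdh5 stood at 38.8% in mouse 4 and 20.3% in mouse 7, and Abcb1a at 43.5% and 57.6%. Vwf parted the 2 mice, at 139% in mouse 4 and 15.8% in mouse 7. Cldn5 was at 119% and 75.2%, Pecam1 at 102% and 69.1%, and Slc2a1 at 82.3% and 86.5%, so the genes of the list were not lowered alike. Below 50% of that median were 2 of the 10 genes in each mouse, 3 and 5 of 17 further pan-endothelial genes, 5 and 6 of 7 fibroblast markers, and 8.91% and 12.1% of all genes tested. Among pericyte markers it was 3 and 5 of 10, while 0 of 7 astrocyte, oligodendrocyte or neuron markers were that low in either mouse. The part of tissue composition in the low Cdh5 of these mice was not tested.

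**Figure D3:**
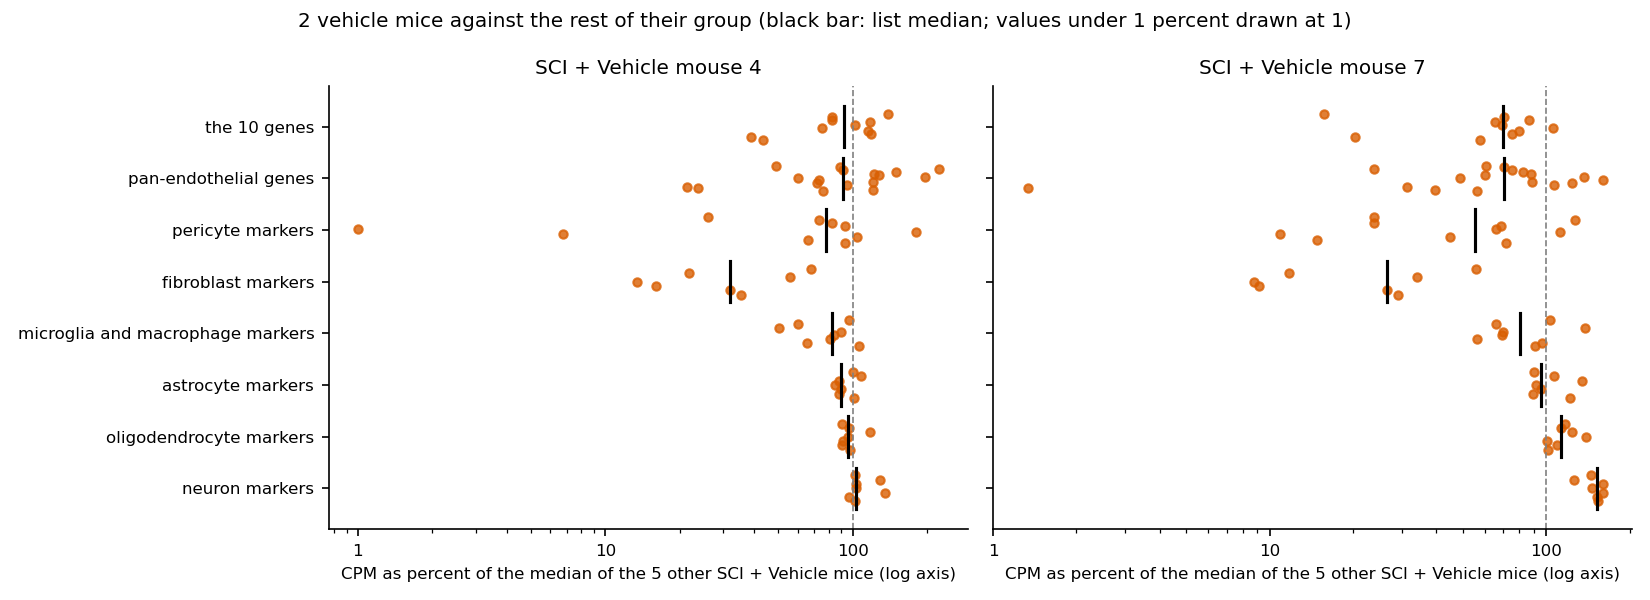
CPM in SCI + Vehicle mouse 4 (left) and mouse 7 (right) as a percent of the median of the 5 other vehicle mice (log axis), with 1 point per gene of each list and a black bar at the list median. Fibroblast markers have medians of 31.9% and 26.6%, the 10 genes 92.5% and 69.9%, and neuron markers 103% and 153%.

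Across the 14 SCI mice, after centring on the treatment means, 1 of the 9 other genes, Tjp1, passed the test of Pearson's r with Cdh5 after adjustment, and none that of Spearman's rho. Pearson's r with Cdh5 was 0.919 for Tjp1 (Spearman's rho 0.714, permutation p = 0.00192 and 0.0117, adjusted over 9 correlations 0.0173 and 0.0526). Without mice 4 and 7, the 2 farthest from the Cdh5 median, r was 0.475, so the relation of Tjp1 rests on those mice. For Abcb1a, r was 0.814 (rho 0.745, permutation p = 0.0120 and 0.00725, adjusted 0.0539 and 0.0526), and 0.711 without them. Within the 7 SCI + Atorvastatin mice r of Abcb1a was 0.969, the highest of the 9 genes, and within the 7 SCI + Vehicle mice it was 0.798, below Tjp1 at 0.963. SCI + Atorvastatin mice 2 and 7 stood highest of their group in both genes. They had 63.3 and 68.4 CPM of Cdh5 (group median 43.9) and 119 and 131 of Abcb1a (group median 92.9). Both were kept in the values of 0.969 and 0.711, and r of Abcb1a without them was not tested. Vwf had r of 0.612 (rho 0.354, permutation p = 0.123 and 0.246, adjusted 0.276 and 0.443), which fell to 0.121 without SCI + Vehicle mice 4 and 7.

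Like Abcb1a and Vwf, the other 6 genes did not pass the test. Cldn5 had r of 0.268 (permutation p = 0.409), Ocln 0.254 (permutation p = 0.531), Pecam1 0.272 (permutation p = 0.420) and Mfsd2a 0.280 (permutation p = 0.389). Slc2a1 had 0.415 (permutation p = 0.0978) and Plvap 0.395 (permutation p = 0.182), and all 6 adjusted values were 0.276 or above. As a description over the 12 SCI mice left without 4 and 7, Cldn5 varied with Ocln (r 0.693) and against Slc2a1 (r -0.648).

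**Figure D4:**
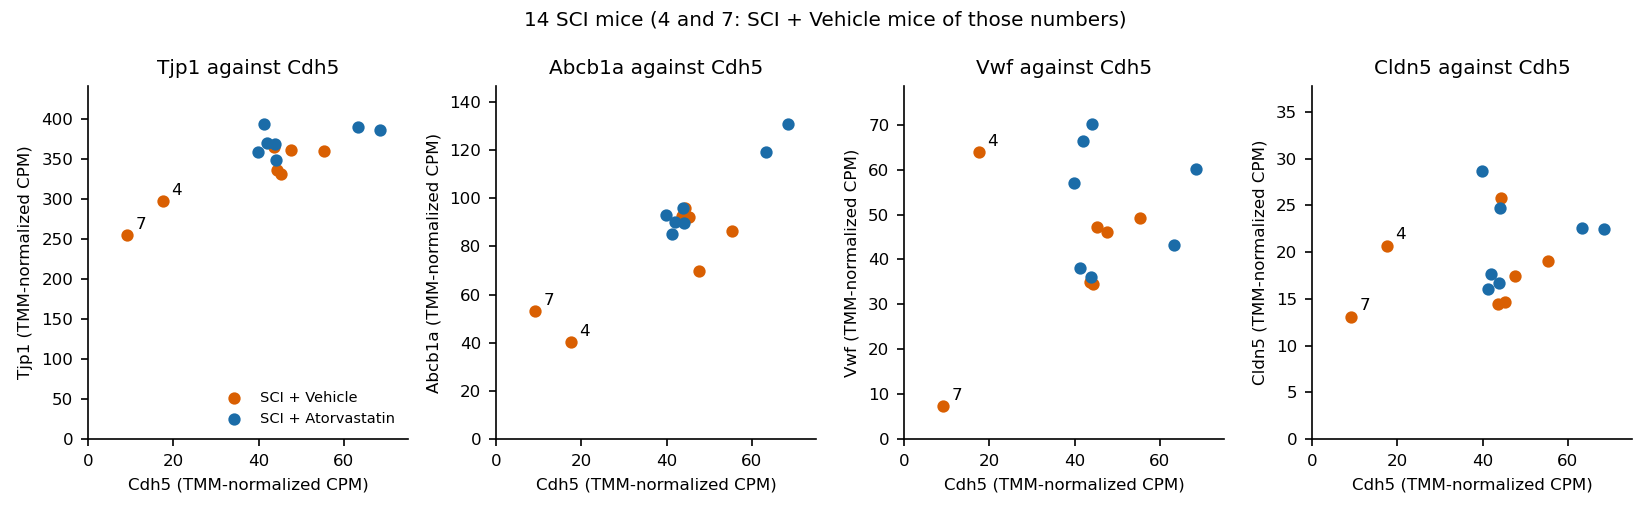
Tjp1, Abcb1a, Vwf and Cldn5 (vertical axes) against Cdh5 (horizontal axes), all in TMM-normalized CPM from 0, in 14 SCI mice with 1 point per mouse, where 4 and 7 mark the SCI + Vehicle mice of those numbers. Mice 4 and 7 lie apart at 17.6 and 9.20 CPM of Cdh5, and they are the lowest 2 of the vehicle mice in Tjp1 and in Abcb1a. Cldn5 stands at 20.7 CPM in mouse 4 and at 13.1, the lowest of the 14, in mouse 7.

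The genes most like each member were sought among 12578 with a mean of at least 5 CPM, by Pearson's r over the 14 centred SCI mice. Those nearest to Cldn5 were Fiz1, Tapbp, Lrrc8d and Slc15a3, at r of 0.828 to 0.809, and those nearest to Plvap were Fgd2, Klhl5, Gusb, A330049N07Rik and Mmp14, at 0.835 to 0.792. No gene of the vascular lists was among the 10 nearest to either. These lists are a small part of the 12578 genes, so no conclusion is drawn from that absence. For Cdh5, looked up after its values were seen, the nearest were the collagen gene Col5a1 (0.978), Klf5, Foxc2, Cped1 and the collagen gene Col3a1 (0.962), and without mice 4 and 7 these stood at 0.856, 0.761, 0.604, 0.776 and 0.816. Over the lists, the median r with Cdh5 was 0.875 for 7 fibroblast markers, 0.712 for 9 permeability and caveolae genes and 0.633 for 5 smooth muscle markers. It was 0.478 for 8 pericyte markers, 0.430 for 14 pan-endothelial genes and -0.0351 over all genes compared. Without mice 4 and 7 these medians were, in the same order, 0.540, 0.377, 0.636, 0.452, 0.251 and -0.0161. With Cldn5 the median was 0.265 for the pan-endothelial genes and 0.301 for the fibroblast markers.

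The remaining genes of the vessel wall were counted in lists. Of 17 further pan-endothelial genes, 3 were called higher with vehicle and 4 with atorvastatin, and 2 of these in each comparison, Emcn and Clec14a, had 0 counts in both controls. Among all genes tested, 19.9% and 24.9% were called higher, so these counts do not set the list apart. Ptprb, a phosphatase that restrains the angiopoietin receptor, rose by 1.07 (edgeR adjusted p = 0.0177) and 1.304 (edgeR adjusted p = 0.00651) on the log2 scale. Cd93 rose with atorvastatin (1.08, edgeR adjusted p = 0.0232), beside 0.63 with vehicle (edgeR adjusted p = 0.385). Emcn, the endothelial sialomucin, stood at least 35.5-fold higher in SCI + Vehicle and 34.6-fold higher in SCI + Atorvastatin mice, computed against 3 counts in each control library. Tie1, Erg, Sox18, Icam2, Robo4 and Ecscr were at 0 counts in 1 control and not in the other, and were not called.

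Of 12 further junction genes tested, 1 was called higher and 1 lower in each comparison with the controls, Marveld2 (0 counts in both controls) and Cldn3 (on average 2.29 and 4.86 counts in SCI mice). Cldn3 had 10.1 CPM in control 1, the library with the higher sum of hepatocyte markers, and 0 in control 2. The part of liver RNA in that value was not tested. Of 13 transporters, 3 were called higher with vehicle and 6 with atorvastatin, and none lower. The lactate carrier Slc16a1 rose by 1.36 and 1.62 (edgeR adjusted p = 0.000448 and 3.98e-05), the organic anion carrier Slco2b1 by 0.74 and 0.84 (edgeR adjusted p = 0.0290 and 0.00972) and the efflux pump Abcg2 with atorvastatin by 1.18 (edgeR adjusted p = 0.0203), beside 1.05 with vehicle (edgeR adjusted p = 0.0595). Abcb1b, the sister of Abcb1a, was at least 116-fold and 135-fold higher against 3 counts in each control library, where, as above, 15.1% of all genes were at 0 in both. Beside these counts, 19.9% and 24.9% of all genes tested were called higher.

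Genes of barrier Wnt signalling went both ways. The Wnt target Axin2, which oligodendrocyte precursors also make, rose by 2.36 and 2.54 on the log2 scale (edgeR adjusted p = 0.000219 and 6.45e-05), while the receptor Fzd4 fell by 1.26 and 1.23 (edgeR adjusted p = 0.0133 and 0.00361). Ctnnb1, or beta-catenin, rose with atorvastatin by 0.55 (edgeR adjusted p = 0.00272), beside 0.32 with vehicle (edgeR adjusted p = 0.0670). Foxq1 and Reck, with 0 counts in both controls, were among the 4 genes of this list called higher with vehicle. Of 10 tested genes of permeability, caveolae and leukocyte adhesion, 3 were called higher with vehicle, and 4 higher and 1 lower with atorvastatin. For this list and the Wnt list, the shares over all genes tested were 19.9% and 24.9% higher, and 9.91% and 14% lower. The caveolar genes Cav1 and Cav2 rose with vehicle by 1.23 and 1.73 and with atorvastatin by 1.52 and 1.83, with adjusted p from 0.000981 to 0.0348 in edgeR. Ptrf (Cavin1) and Sdpr (Cavin2), caveolar too, did not rise alike. With vehicle they stood at 0.15 and 0.10 (edgeR adjusted p = 0.817 and 0.873). Icam1, which leukocytes bind, rose with atorvastatin by 0.90 (edgeR adjusted p = 0.0257), beside 0.95 with vehicle (edgeR adjusted p = 0.0776). The peptide gene Apln fell by 1.08 with atorvastatin (edgeR adjusted p = 0.000396), beside -0.77 with vehicle (edgeR adjusted p = 0.0597). Without SCI + Vehicle mice 4 and 7, Icam1 and Apln were called with vehicle too, at 1.10 and -0.86 (edgeR adjusted p = 0.0356 and 0.0371), and Cldn3 of the junction genes was not (edgeR adjusted p = 0.0909).

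Around the vessels, 4 of 10 pericyte markers were called higher with vehicle and 5 with atorvastatin, among them Rgs5, at 1.03 and 1.10, and Cspg4, which glial precursors share, at 2.97 and 3.16 (adjusted p from 0.00505 to 0.0132 in edgeR). Of these, 2 in each comparison, Higd1b and Ndufa4l2, had 0 counts in both controls. Smooth muscle markers were called higher in 1 and 2 of 6, among them Cnn1 with 0 counts in both controls. Fibroblast markers were called in 0 of 7 with vehicle and 6 of 7 with atorvastatin, all higher, and 5 and 6 of 8 microglia and macrophage markers were called higher, beside the 19.9% and 24.9% of all genes. Without SCI + Vehicle mice 4 and 7, 5 of 7 fibroblast markers were called higher with vehicle, where 18.3% of all genes were. Between the treatments, 0 genes of any of these lists were called. There, 6 of 7 fibroblast markers had an unadjusted p below 0.05 and all 7 were higher with atorvastatin (median log2 difference 0.84), beside 3 of 10 genes of permeability and caveolae, 2 of 10 pericyte markers, 1 of 6 smooth muscle markers, 1 of 13 genes of barrier Wnt signalling (Ctnnb1, 0.21, edgeR unadjusted p = 0.00317, adjusted p = 0.680), 0 of 12 junction genes, 0 of 17 pan-endothelial genes (median 0.21), 1 of 13 transporters (Slc16a1, 0.24, edgeR unadjusted p = 0.00976, adjusted p = 0.680) and 7.03% of all genes. Without SCI + Vehicle mice 4 and 7 these were 3 of 7 fibroblast markers (median 0.49), 2 of 10 pericyte markers (Pdgfrb and Vtn), 0 of the permeability and smooth muscle genes, 1 of 13 transporters (Slco1c1) and 4.25% of all genes. In the barrier Wnt list it was again 1 of 13, Ctnnb1 (0.16, edgeR unadjusted p = 0.0195), which did not pass adjustment. The part of fibroblast content in the higher Abcb1a and Tjp1 of SCI + Atorvastatin mice was not tested.

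**Figure D5:**
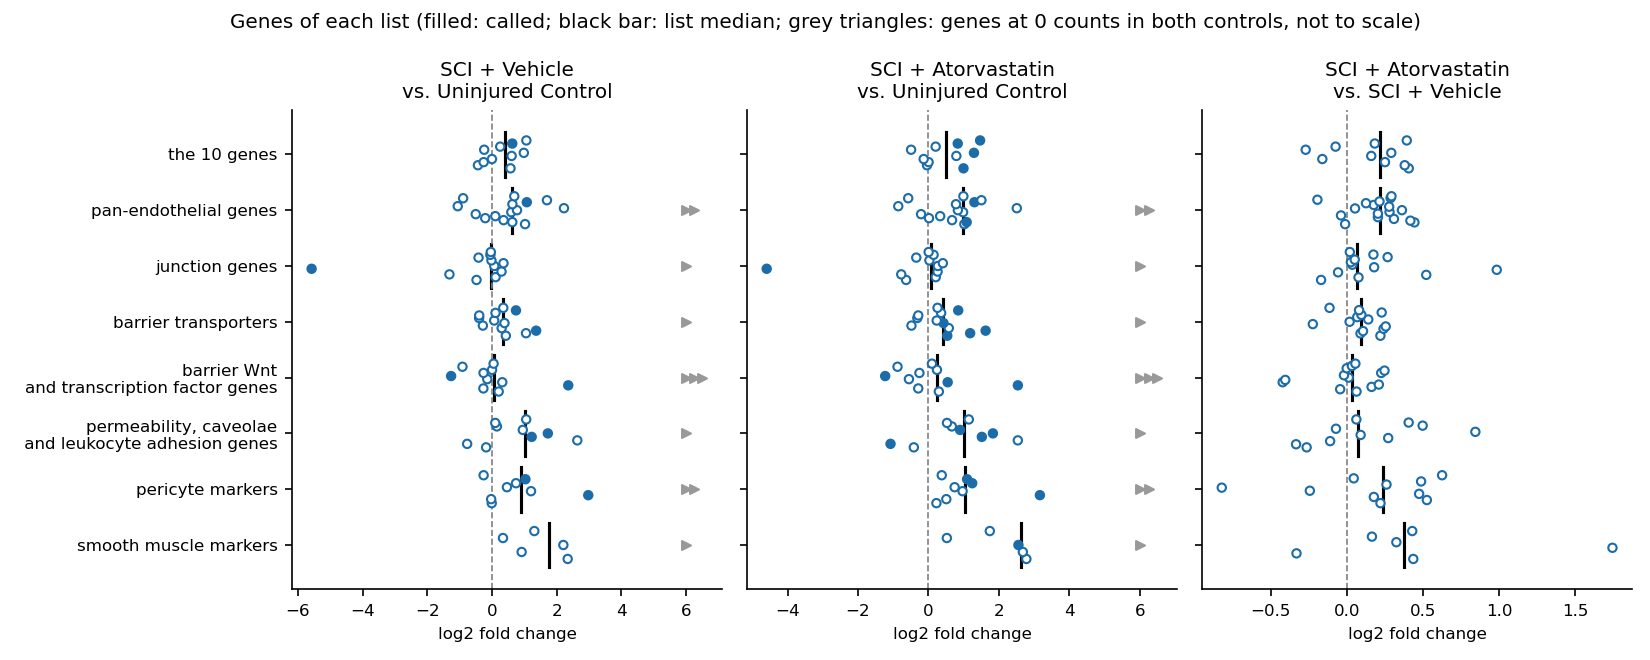
Log2 fold change (horizontal axes) of each gene of the vascular lists in the 3 comparisons, with filled circles for called genes, a black bar at the list median and grey triangles, not to scale, for genes at 0 counts in both controls. The median of the 10 genes is 0.41 and 0.50 against the controls and 0.22 between the treatments. The last is 0.09 without SCI + Vehicle mice 4 and 7, which is not drawn.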

How the data were processed

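Stranded total RNA libraries (SMARTer, Pico Input) of 16 mouse spinal cords were sequenced, and the submitters' processing notes name FastQC 0.12.1, Trimmomatic 0.38, STAR 2.5.4b, RSEM 1.3.1 and mm10. Counts, whole numbers without normalization, and TPM, normalized for transcript length, were deposited for each gene and mouse. How RSEM's output became whole numbers is not given in the sources used here. Groups came from the sample labels, and nothing says that mice shared a litter or batch.

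The 16091 genes whose mean TPM exceeded 1 in any condition were tested on counts with edgeR 4.0.16 (TMM, library totals over all genes, quasi-likelihood test, R 4.3.3), with the 2 groups of each comparison in each fit and Benjamini-Hochberg adjustment over all genes. Limits of the calls follow the study's methods. The study used DESeq2, and its limit between treatments was for genes that had passed the adjusted limit against Uninjured Control. Here that limit was applied to all genes tested. Intervals are 1.96 standard errors. Correlations used log2 CPM (prior count 2) centred on group means and 100000 shuffles within groups, two-sided. Alternatives used DESeq2 1.42.0, limma 3.58.1 on log2(TPM + 1) or log2(TPM + 0.1), other filters and library sizes, all 3 groups in 1 fit, the replicate number as a block, and each mouse left out. The fits were tested on simulated data. Positions are those of GENCODE M21 and RefSeq on GRCm38, the assembly of mm10. The named genes were the 10 genes, up to 3 called genes per list and direction with the largest fold change and at least 20 counts on average in each group, up to 2 genes per vascular list with the smallest p between treatments, and the 5 most alike to Cldn5 and Plvap. Genes at 0 counts in the controls and others outside this rule were named after their values were seen. Some genes that this rule takes are not reported here. The 10 genes and all lists were chosen with earlier results of these data known. Plots used matplotlib 3.10.9 (Python 3.11.15). Mice of a group are separate animals.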

Additional observations from a re-analysis of the deposited data

How the results depend on the processing

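Between the treatments, 0 of the 10 genes were called in all 25 alternatives, and each of the 10 log2 differences kept its sign. Against the controls, the count of 1 with vehicle was kept in 12 of 20 alternatives. It was 2 with DESeq2 or all 3 groups in 1 fit, 0 with voom and group weights, and 3 (Tjp1, Abcb1a and Vwf) without both SCI + Vehicle mice 4 and 7, the last 2 chosen after the data were seen. Leaving out each mouse in turn gave 1 to 4 with vehicle, where 2 came without SCI + Vehicle mouse 7 (Tjp1 and Vwf), 2 without control 1 (Cldn5 and Pecam1) and 4 without control 2 (Tjp1, Slc2a1 and Mfsd2a higher, Cldn5 lower). With atorvastatin it gave 4 to 7, with 4 for each SCI mouse left out, 6 without control 1 and 7 without control 2, and voom with group weights gave 0. DESeq2 and both forms of limma on TPM called Ocln as well, 5 in all. Where only 1 control remains, it is assumed to vary like the SCI mice.

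Changes of sign were confined to log2 fold changes against the controls that were not called, and to 4 correlations. Mfsd2a with vehicle was 0.0074 with no gene filter, 0.030 where every condition needed a mean TPM above 1, 0.015 with all 3 groups in 1 fit, 0.19 and 0.21 in limma on log2(TPM + 1) and log2(TPM + 0.1), 0.0017 with library sizes without hepatocyte and kidney markers, 0.15 with voom and 0.038 without mice 4 and 7. Mfsd2a with atorvastatin was 0.12 and 0.13 in limma on TPM and 0.020 with voom. Cldn5 with vehicle was 0.13 and 0.14 in limma on TPM and 0.029 with voom, and with atorvastatin it was -0.024 with DESeq2 or with its size factors and -0.0038 with all 3 groups in 1 fit. Cdh5 with atorvastatin was 0.067 and 0.068 in limma on TPM. With each mouse left out, values with vehicle ran from -0.93 to 0.99 for Cldn5, -0.13 to 0.78 for Slc2a1, -0.58 to 0.98 for Mfsd2a and -0.59 to 0.21 for Plvap. With atorvastatin they ran from -0.66 to 1.26 for Cldn5, -0.14 to 0.0039 for Cdh5, -0.18 to 0.72 for Slc2a1 and -0.71 to 0.84 for Mfsd2a. The cause was not tested.

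With the replicate number as a block, 0 of the 10 genes were called in each comparison with the controls (27 and 0 of all genes), and Mfsd2a was 0.12 and 0.21, Plvap with vehicle 0.15 and Cdh5 with atorvastatin 0.036. Only replicate numbers 1 and 2 hold a control, so the block leaves few mice to judge these comparisons by. Mice of the same number in the SCI groups did not deviate together (correlations -0.150 to 0.0871), and 0 of 7 correlated best with its own number, so the samples share only a number.

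Of the 9 correlations with Cdh5, 1 passed after adjustment and 2 did on log2(TPM + 1). With each mouse left out the number was 0 to 1, and 0 came without SCI + Vehicle mouse 4 or 7. The same runs gave r of -0.0663 to 0.398 for Cldn5, -0.0326 to 0.425 for Pecam1, -0.211 to 0.406 for Mfsd2a and -0.326 to 0.863 for Vwf, and the lowest values came without mouse 7.

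Depth was lowest for Plvap, at 83 to 284 counts per library, and comparisons with the uninjured cord rest on 2 controls. Dixon's ratio singled out no mouse in 20 groups of 7, but it cannot single out 2 mice that are low together, as mice 4 and 7 were for Cdh5.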
